A study of Mus musculus with 12 samples.

Results

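Gonocytes, the male germ cells present in the mouse testis around birth, were examined for 10 genes. Their proteins write or read methylation of lysine 9 on histone H3 (H3K9), or act as cofactors of a writer. The genes were chosen by name: Setdb1, Trim28, Atf7ip, Suv39h1, Suv39h2, Ehmt1, Ehmt2, Cbx1, Cbx3 and Cbx5. All 10 were found by Ensembl identifier among the 35666 genes listed, and all 10 passed the filter for testing, a mean of at least 10 normalized counts over 6 libraries, as did 26005 genes in all. The germ cells came from testes of male mice that carried the Mvh-Venus transgene, a fluorescent reporter of the germ cell gene Mvh (Ddx4), and each library was made from such cells of 1 genotype. The compared groups were Morc1 (+/-) (het) and Morc1 (-/-) (KO) cells at postnatal day 0 (P0), with 3 libraries each. The reporter was thus shared by both groups, and the controls carried 1 mutant Morc1 allele rather than none. The labels also list 3 het and 3 KO samples at P3, which were not analysed here.

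Methylation of H3K9 marks silent chromatin. SETDB1 trimethylates H3K9 where TRIM28 and KRAB zinc finger proteins bring it, largely at retrotransposons, and ATF7IP is its partner. SUV39H1 and SUV39H2 trimethylate H3K9 at pericentric repeats, and EHMT2 (G9a) and EHMT1 (GLP) form a dimer that adds the lower methylation states in euchromatin. The HP1 proteins CBX5 (HP1α), CBX1 (HP1β) and CBX3 (HP1γ) bind the methylated lysine and partner proteins through their chromodomain and chromoshadow domain. In male germ cells these enzymes act beside DNA methylation in the silencing of transposable elements (TEs), and MORC1 is a germ cell ATPase that is also needed for TE silencing.

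The depth of the gene table was 28363683 to 32816861 recovered reads per library. Values are normalized counts, read counts divided by 1 size factor per library. Morc1 itself had 7248, 7485 and 4126 normalized counts in het and 1360, 1343 and 1794 in KO, replicates 1 to 3 in order. It fell by 2.03 on the log2 scale (SE 0.27, limma adjusted p = 0.0109), so that 23.8% of the het mean was left; the labels do not say which part of the gene the mutation removes. An exact permutation test of 3 against 3 libraries gave p = 0.1, the smallest it allows. Of the germ cell markers, the 10 genes summed to 146593 to 211880 normalized counts in het and 148240 to 219082 in KO, and none of the 10 was at 0 in any library. Het replicate 3 stood apart: its 5 Leydig cell markers summed to 24921 normalized counts, against 776 and 1079 in the other het libraries and 510 to 1075 in KO. The 8 Sertoli cell markers summed to 17646 to 37622 in het and 12649 to 18269 in KO, and no somatic marker was at 0 in any library. The labels do not say whether the libraries of a group came from separate animals, so p-values measure only the spread between these libraries.

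None of the 10 genes passed the test between KO and het (limma, Benjamini-Hochberg over all genes tested, adjusted p under 0.05), where 0.473% of all genes tested passed, 0.431% with higher and 0.0423% with lower values in KO. The count was also 0 in edgeR and DESeq2. At an unadjusted p under 0.05 there was 1 gene of the 10 in each of these tests, Cbx5, and in limma 6.86% of all genes (4.42% with higher values in KO, as for Cbx5). The KO and het libraries did not overlap for 2 of the 10 genes, Cbx3 and Cbx5, both with every KO library above every het library. Groups did not overlap for 12.7% of all genes tested, with every KO library above for 7.17% and below for 5.57%. The estimated difference was positive for 8 of the 10 genes and negative for 2, with a median log2 fold change of 0.16, beside -0.02 over all genes tested. The 8 include Trim28 at 0.01. Over all genes tested, 12588 estimates were positive and 13417 negative. In bulk RNA, fewer cells of a type and less RNA per cell cannot be told apart.

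**Figure D1:**
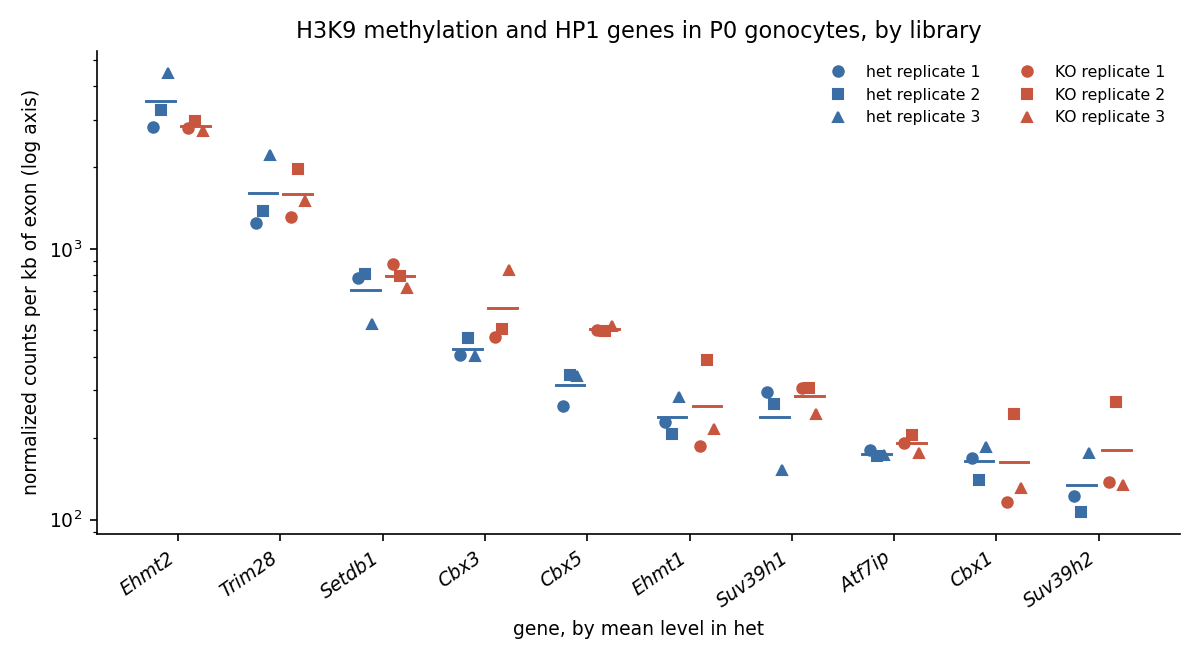
Level of each gene in every library as normalized counts per kb of exon (log axis), with genes ordered by their het mean. Blue symbols are het and red symbols KO libraries, with 1 symbol shape per replicate number and a line at each group mean. Ehmt2 stood highest in every library, and only Cbx3 and Cbx5 had separate groups.

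Levels were compared between genes per kb of annotated exon. In het, Ehmt2 was highest with 3516 ± 857 normalized counts per kb (SD, n = 3), followed by Trim28 with 1614 ± 524 and Setdb1 with 705 ± 152. Cbx3 had 426 ± 37.9 and Cbx5 had 315 ± 45.1 normalized counts per kb. The ranges of neighbours in this order did not overlap in het from Ehmt2 down to Cbx5. Below that, every pair of neighbours overlapped: Ehmt1 with 240 ± 39.4, Suv39h1 with 239 ± 75.9, Atf7ip with 175 ± 4.54, Cbx1 with 165 ± 23.2 and Suv39h2 with 135 ± 36.2 normalized counts per kb. The order Ehmt2, Trim28, Setdb1 held in all 6 libraries, and Setdb1 was above Cbx3 and Cbx3 above Cbx5 in 5 of 6 each. These values divide by the union of all annotated exons, so a gene with long or little used exons, such as Atf7ip with 20726 exon bases, is placed lower than its main transcript alone would be.

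The SETDB1 arm of the pathway was represented by the enzyme and both of its cofactors. Setdb1 (ENSMUSG00000015697, GRCm38 chr3:95323525-95357202, minus strand) had 5353, 5515 and 3633 normalized counts in het and, given in the same order of replicates, 6025, 5437 and 4908 in KO. Its groups overlapped, and only het replicate 3 was low. KO over het, the log2 fold change was 0.19 (SE 0.22, limma adjusted p = 0.929), with a 95% interval of 0.813- to 1.61-fold. Het replicate 3 and KO replicate 2 were the het and KO libraries whose deviations from their group means were most alike (r = 0.21 across 26005 genes, which are not independent replicates). The log2 fold change of Setdb1 was 0.00 without het replicate 3 alone and also without both of these libraries.

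Trim28, the corepressor that links KRAB zinc finger proteins to SETDB1 (ENSMUSG00000005566, chr7:12999114-13031035, plus strand), had 5195, 5734 and 9208 normalized counts in het and 5463, 8180 and 6256 in KO. The highest value in each group was that of het replicate 3 and KO replicate 2. Trim28 had a log2 fold change of 0.01 (SE 0.26, limma adjusted p = 0.997), and the 95% interval ran from -0.57 to 0.59 on the log2 scale. Atf7ip, the partner that protects SETDB1 in the nucleus (ENSMUSG00000030213, chr6:136506167-136610862, plus strand), was the steadiest gene of the 10 in het, with 3742, 3566 and 3596 normalized counts. Its KO values were 3986, 4254 and 3664, so that the lowest KO library fell within the het range. The log2 fold change of Atf7ip was 0.12 (SE 0.19, limma adjusted p = 0.945), with a 95% interval of 0.818- to 1.45-fold.

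The SUV39H pair act on constitutive heterochromatin, and Suv39h2 is the form known for its expression in testis. Suv39h1 (ENSMUSG00000039231, chrX:8061171-8074760, minus strand) had 1565, 1403 and 806 normalized counts in het and 1616, 1614 and 1293 in KO. Suv39h2 (ENSMUSG00000026646, chr2:3455815-3475031, minus strand) had 538, 470 and 774 in het and 610, 1195 and 593 in KO. Suv39h1 and Suv39h2 stood in opposite ways in het replicate 3, where Suv39h1 was lowest and Suv39h2 highest of the het libraries. Per kb, Suv39h1 made up 70.9%, 71.4% and 46.5% of the pair's sum in het and 68.9%, 53.0% and 64.6% in KO. Suv39h1 had a log2 fold change of 0.31 (SE 0.28, limma adjusted p = 0.898) with an interval of 0.805- to 1.91-fold. For Suv39h2 it was 0.38 (SE 0.33, limma adjusted p = 0.897) with an interval of 0.784- to 2.16-fold. Both groups overlapped. Single libraries carried both estimates: Suv39h1 was at 0.02 without het replicate 3, and Suv39h2 was at 0.05 without KO replicate 2 and at 0.59 without het replicate 3. Without both of these libraries, the values were -0.04 for Suv39h1 and 0.26 for Suv39h2. Exons of Suv39h1 share 767 bases, 14.6% of its exon bases, with the antisense gene Gm14820, and those of Suv39h2 share 357 bases, 8.10%, with Dclre1c on the other strand. The counting is not stated to use strand, so reads there cannot be assigned to one gene, and Gm14820 was listed with only 21.6 to 66.3 normalized counts.

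EHMT2 and EHMT1 work as a dimer, yet their transcripts differed widely in level. Ehmt2 (ENSMUSG00000013787, chr17:34898469-34914052, plus strand) had 15511, 17826 and 24566 normalized counts in het and 15409, 16347 and 15021 in KO. The KO libraries lay close together, and the het group was spread by het replicate 3. Ehmt1 (ENSMUSG00000036893, chr2:24789928-24919614, minus strand) had 1861, 1681 and 2303 normalized counts in het and 1519, 3158 and 1749 in KO, where KO replicate 2 was far above the others. Per kb, Ehmt2 made up 93.5% ± 0.883 of the pair's sum in het and 91.6% ± 2.81 in KO (SD, n = 3). Ehmt2 had the most negative difference of the 10 genes, a log2 fold change of -0.28 (SE 0.21, limma adjusted p = 0.886) with an interval of 0.596- to 1.14-fold. That of Ehmt1 was 0.07 (SE 0.29, limma adjusted p = 0.984), with an interval of 0.672- to 1.65-fold. Ehmt2 was at -0.09 without het replicate 3, and Ehmt1 at -0.24 without KO replicate 2. Without both of these libraries the values were -0.13 for Ehmt2 and -0.12 for Ehmt1.

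The HP1 genes are similar in sequence, and processed pseudogenes of Cbx3 are spread over the genome, which bears on how far reads can be assigned to each gene. The 120-base coding stretches below are shown to let the 3 genes and a pseudogene be compared. They were cut from GENCODE M21 transcripts (GRCm38) and run from coding base 391 to 510 in Cbx1 and from 403 to 522 in Cbx3 and Cbx5. Capitals mark the 40 positions at which the 3 genes are not all alike, and the other 80 are identical. In the pseudogene Cbx3-ps7, capitals would mark differences from Cbx3.
Cbx1: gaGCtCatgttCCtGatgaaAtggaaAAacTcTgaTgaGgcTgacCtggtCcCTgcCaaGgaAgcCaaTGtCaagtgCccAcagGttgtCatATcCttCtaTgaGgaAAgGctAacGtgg
Cbx3: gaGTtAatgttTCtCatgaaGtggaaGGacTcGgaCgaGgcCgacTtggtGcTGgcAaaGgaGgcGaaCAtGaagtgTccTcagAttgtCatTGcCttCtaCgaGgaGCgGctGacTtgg
Cbx5: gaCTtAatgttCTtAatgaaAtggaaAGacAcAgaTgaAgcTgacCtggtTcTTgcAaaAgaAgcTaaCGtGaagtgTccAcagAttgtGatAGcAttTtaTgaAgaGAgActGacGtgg
Cbx3-ps7: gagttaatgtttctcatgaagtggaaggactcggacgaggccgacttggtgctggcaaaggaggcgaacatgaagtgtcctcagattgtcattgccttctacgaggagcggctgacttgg
There are no capitals in the pseudogene, so no read within this stretch could tell it from Cbx3, while differences between the 3 HP1 genes lie a few bases apart throughout. Over the whole aligned coding sequences, identity was 69.5% between Cbx1 and Cbx3, 67.0% between Cbx1 and Cbx5 and 64.5% between Cbx3 and Cbx5, against 99.6% between Cbx3 and Cbx3-ps7 over 552 bases. For comparison, Suv39h1 and Suv39h2 shared 60.3% and Ehmt1 and Ehmt2 shared 61.8%. A search for transcripts with at least 90% identity over 300 bases found 20 for Cbx3 outside its own locus, 18 of them processed pseudogenes, and 1 for Cbx1. Of the 20, 5 were listed. Als2cr12, a gene on the opposite strand to Cbx3-ps7 that overlaps it, was the only one with a mean of at least 10, and it had 75.2 to 159 normalized counts per library. Cbx3-ps7 itself had 0.954 to 5.88. How the authors treated reads that match several places is not given in the sources used here, so the level of Cbx3 is uncertain by what such reads contributed or lost.

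Cbx5 (ENSMUSG00000009575, chr15:103191544-103239816, minus strand) encodes HP1α. It had 2365, 3072 and 3063 normalized counts in het and 4503, 4476 and 4693 in KO. The 3 KO libraries lay close together and all of them above the highest het library. The means were 2834 ± 406 in het and 4557 ± 118 in KO (SD, n = 3), a ratio of 1.61. This gave a log2 fold change of 0.70 (SE 0.20), with a 95% interval of 0.25 to 1.14 on the log2 scale. The unadjusted limma p was 0.00558, and the adjusted p of 0.301 did not pass the threshold. Over the alternatives the log2 fold change of Cbx5 stayed between 0.57 and 0.77 and the adjusted p between 0.0830 (DESeq2) and 1.00 (without het replicate 1). It was 0.76 without het replicate 3 (limma adjusted p = 0.336) and 0.77 without both het replicate 3 and KO replicate 2 (limma adjusted p = 0.270). The estimates of all 8 Sertoli markers were negative in the same fit, and 3 of the 8 (Sox9, Amh and Clu) had an unadjusted p under 0.05, against 6.86% of all genes tested. The part of the Sertoli markers in the Cbx5 difference was not tested.

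Cbx3 (ENSMUSG00000029836, chr6:51470360-51483704, plus strand) encodes HP1γ. It had 2439, 2817 and 2408 normalized counts in het and 2833, 3036 and 4995 in KO. The groups did not overlap, but KO replicate 1 was barely above het replicate 2, and KO replicate 3 alone was far above the rest. Its log2 fold change was 0.46 (SE 0.25, limma unadjusted p = 0.0954, adjusted p = 0.818), with an interval of 0.936- to 2.02-fold. Without KO replicate 3 it was 0.20. Cbx1 (ENSMUSG00000018666, chr11:96789127-96808640, plus strand) encodes HP1β and had 725, 598 and 793 normalized counts in het and 495, 1047 and 559 in KO. Its KO libraries lay on both sides of the het range, and the log2 fold change was -0.08 (SE 0.31, limma adjusted p = 0.983), with an interval of 0.586- to 1.52-fold.

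Added up per kb, the HP1 genes had 839, 951 and 928 normalized counts per kb in het and 1089, 1249 and 1486 in KO. Cbx3 was the largest part of this sum in every het library, with 48.5%, 49.4% and 43.3%. The Cbx5 share was 31.3%, 35.9% and 36.7% in het and 45.9%, 39.8% and 35.1% in KO, so the shares overlapped although the Cbx5 counts did not. In KO replicate 1 Cbx5 exceeded Cbx3, with a share of 45.9% against 43.4%, and in KO replicate 3 Cbx3 had 56.1%. Sums and shares were not tested.

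**Figure D2:**
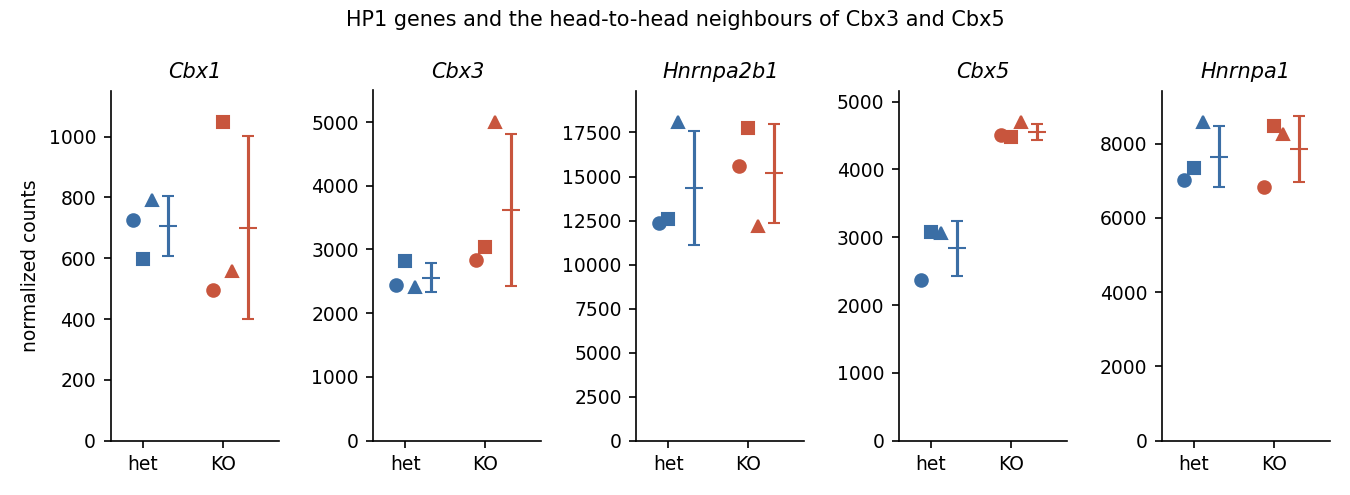
Normalized counts (linear axes from 0) of the 3 HP1 genes and of the genes that start head to head with Cbx3 and Cbx5, in het (blue) and KO (red) libraries, with 1 symbol shape per replicate number and bars for mean ± SD (n = 3). The Cbx5 groups are apart, whereas those of Hnrnpa1 overlap.

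Cbx5 and Cbx3 each start head to head with a gene for an RNA-binding hnRNP protein, 616 bases from the start of Hnrnpa1 and 466 bases from that of Hnrnpa2b1. These neighbours were looked up after the values of the HP1 genes were known. Hnrnpa1 had 7018, 7351 and 8572 normalized counts in het and 6834, 8486 and 8245 in KO, a log2 fold change of 0.04 (SE 0.19, limma adjusted p = 0.988) with an interval of -0.39 to 0.46 on the log2 scale. Hnrnpa2b1 had 12368, 12584 and 18076 in het and 15582, 17754 and 12200 in KO, and its log2 fold change was 0.09 (SE 0.23, limma adjusted p = 0.970). Both pairs of groups overlapped. The difference between a gene and its neighbour was not tested. Head-to-head starts were also annotated for Ehmt2 with C2 (204 bases) and for Trim28 with Slc27a5 (922 bases), so the arrangement is not particular to Cbx5 and Cbx3.

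The sequence between the Cbx5 and Hnrnpa1 starts is shown because the genes start on either side of it and the groups were apart for Cbx5 and overlapped for Hnrnpa1. These are the 250 bases before the RefSeq start of Cbx5 (GRCm38.p6, chr15:103239853-103240102, minus strand), with no annotated exon bases. Capitals mark GC boxes (GGGCGG) and CCAAT boxes (CCAAT, here on the other strand as ATTGG), searched on both strands.
Cbx5 upstream: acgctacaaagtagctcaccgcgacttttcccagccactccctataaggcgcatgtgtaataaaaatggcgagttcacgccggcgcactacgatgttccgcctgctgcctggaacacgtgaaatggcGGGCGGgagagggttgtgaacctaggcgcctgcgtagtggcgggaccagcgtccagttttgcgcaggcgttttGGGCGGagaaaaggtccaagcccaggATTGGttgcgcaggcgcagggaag
The window holds 2 GC boxes, 1 CCAAT box and 22 CpG dinucleotides, against a median of 6 CpG over all 32817 RefSeq windows of this length. A GC box was in 32.7% of all windows and a CCAAT box in 33.8%. Among the 14 windows of the 10 genes, 13 held a GC box and 4 a CCAAT box, and each of the 10 genes had a window with a GC box. Their CpG counts ran from 7 to 36, so the count of the window shown is not particular to Cbx5. A second RefSeq window of Cbx5 (chr15:103215353-103215602) held 7 CpG, 1 GC box and no CCAAT box. These matches describe the letters of the windows only.

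**Figure D3:**
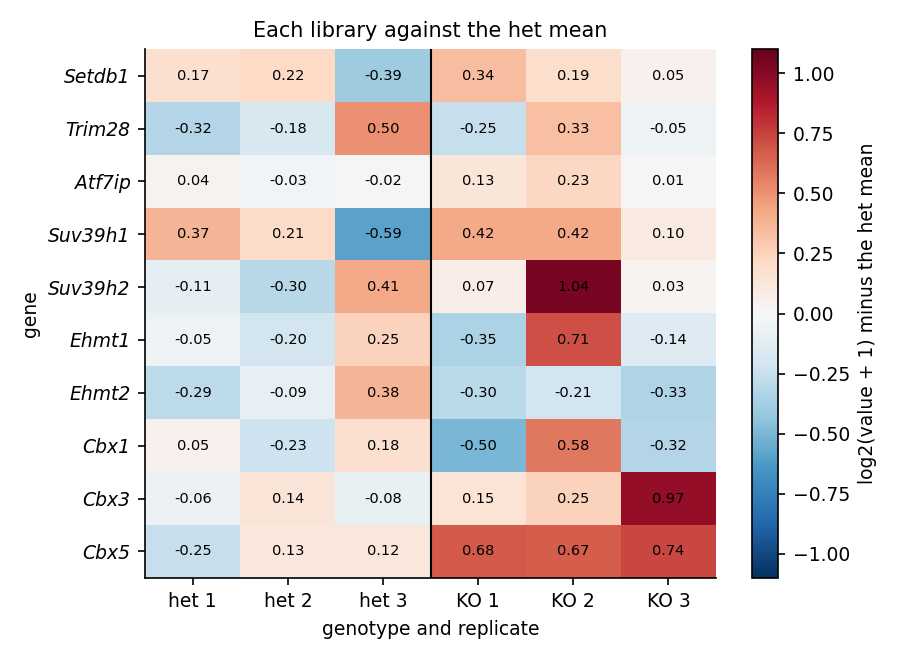
Each library as log2(normalized count + 1) minus the het mean of the gene, for the 10 genes (rows) in 3 het and 3 KO libraries (columns), with the value written in each cell. Cbx5 is 0.67 to 0.74 above the het mean in all KO libraries, while the other high cells are mostly in 1 library at a time, such as Suv39h2 (1.04) and Ehmt1 (0.71) in KO replicate 2.

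Each library was the lowest or highest of its group for 5 to 8 of the 10 genes. The count was 8 for het replicate 3 and 7 for each of het replicate 2, KO replicate 2 and KO replicate 3. With 3 libraries in a group, every gene has a lowest and a highest, so these counts set no library apart. Relative to the het mean of each gene, KO replicate 2 stood 1.04 higher on the log2 scale for Suv39h2, 0.71 for Ehmt1 and 0.58 for Cbx1, genes for which KO replicates 1 and 3 were between -0.50 and 0.07. Cbx3 was 0.97 higher in KO replicate 3. Without het replicate 3 and KO replicate 2, none of the 10 genes passed the test, and Cbx5 and Cbx3 kept the highest log2 fold changes, 0.77 and 0.52.

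By the rule for genes of like pattern, those with the highest Pearson correlation with Cbx5 over the 6 libraries among 26004 other genes were Dnajb4 (r = 0.992), Pglyrp4 (r = 0.991) and Psg29 (r = 0.991). All values come from the same libraries, and such values are the top of a long list over 6 points. Dnajb4, a heat shock co-chaperone gene, had 2045, 2481 and 2414 normalized counts in het and 3237, 3110 and 3479 in KO. Pglyrp4, a peptidoglycan recognition gene, had 41.0 to 102 in het and 246 to 330 in KO. Psg29, a pregnancy-specific glycoprotein gene, had at most 3.90 in het and 27.7 to 52.7 in KO. None of these genes passed the limma test (adjusted p of 0.624, 0.0768 and 0.141).

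The other genes of the pathway were read from 7 lists with 44 genes, of which 43 had a mean high enough for the test. The gene left out was Zfp708, a KRAB zinc finger gene with at most 4.83 normalized counts. None of the 43 passed in limma or edgeR, beside 0.473% of all genes in limma, and 1 passed in DESeq2, beside 1.79% of all genes. At an unadjusted limma p under 0.05 there were 5, all of them higher in KO: Wiz, Sumo2, Trim33, Zfp445 and Resf1. Over all genes tested this share was 6.86%, and 4.42% with higher values in KO. Every KO library was above every het library for 5 (Wiz, Sumo2, Resf1, Pphln1 and Kdm4d) and below for 1 (Kdm4b), against 7.17% and 5.57% of all genes tested, so the count of groups that did not overlap was near the background. The estimates were positive for 26 and negative for 17, beside 12588 and 13417 over all genes tested, with a median log2 fold change of 0.12.

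Wiz encodes a zinc finger protein that holds G9a and GLP together and on chromatin. It had the largest difference of the lists, with 1104, 1154 and 1457 normalized counts in het and 2232, 3396 and 2313 in KO. The lowest KO library was well above the highest het library. The log2 fold change was 1.08 (SE 0.24, limma unadjusted p = 0.00114, adjusted p = 0.126), with an interval of 1.46- to 3.06-fold. DESeq2, run on the recovered reads, gave an adjusted p of 0.00360, the edgeR adjusted p was 0.116, and over all alternatives the adjusted p ranged from 0.00360 to 0.532. The log2 fold change of Wiz was 0.89 to 1.20 over the same alternatives, and 1.01 without het replicate 3 and KO replicate 2. Zfp644, which binds G9a and GLP with WIZ, was the most abundant of that list per kb, and had 3886, 3888 and 4843 normalized counts in het and 3628, 4821 and 3559 in KO (log2 fold change -0.08, limma adjusted p = 0.971). The enzymes' own genes, Ehmt1 and Ehmt2, had overlapping groups.

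**Figure D4:**
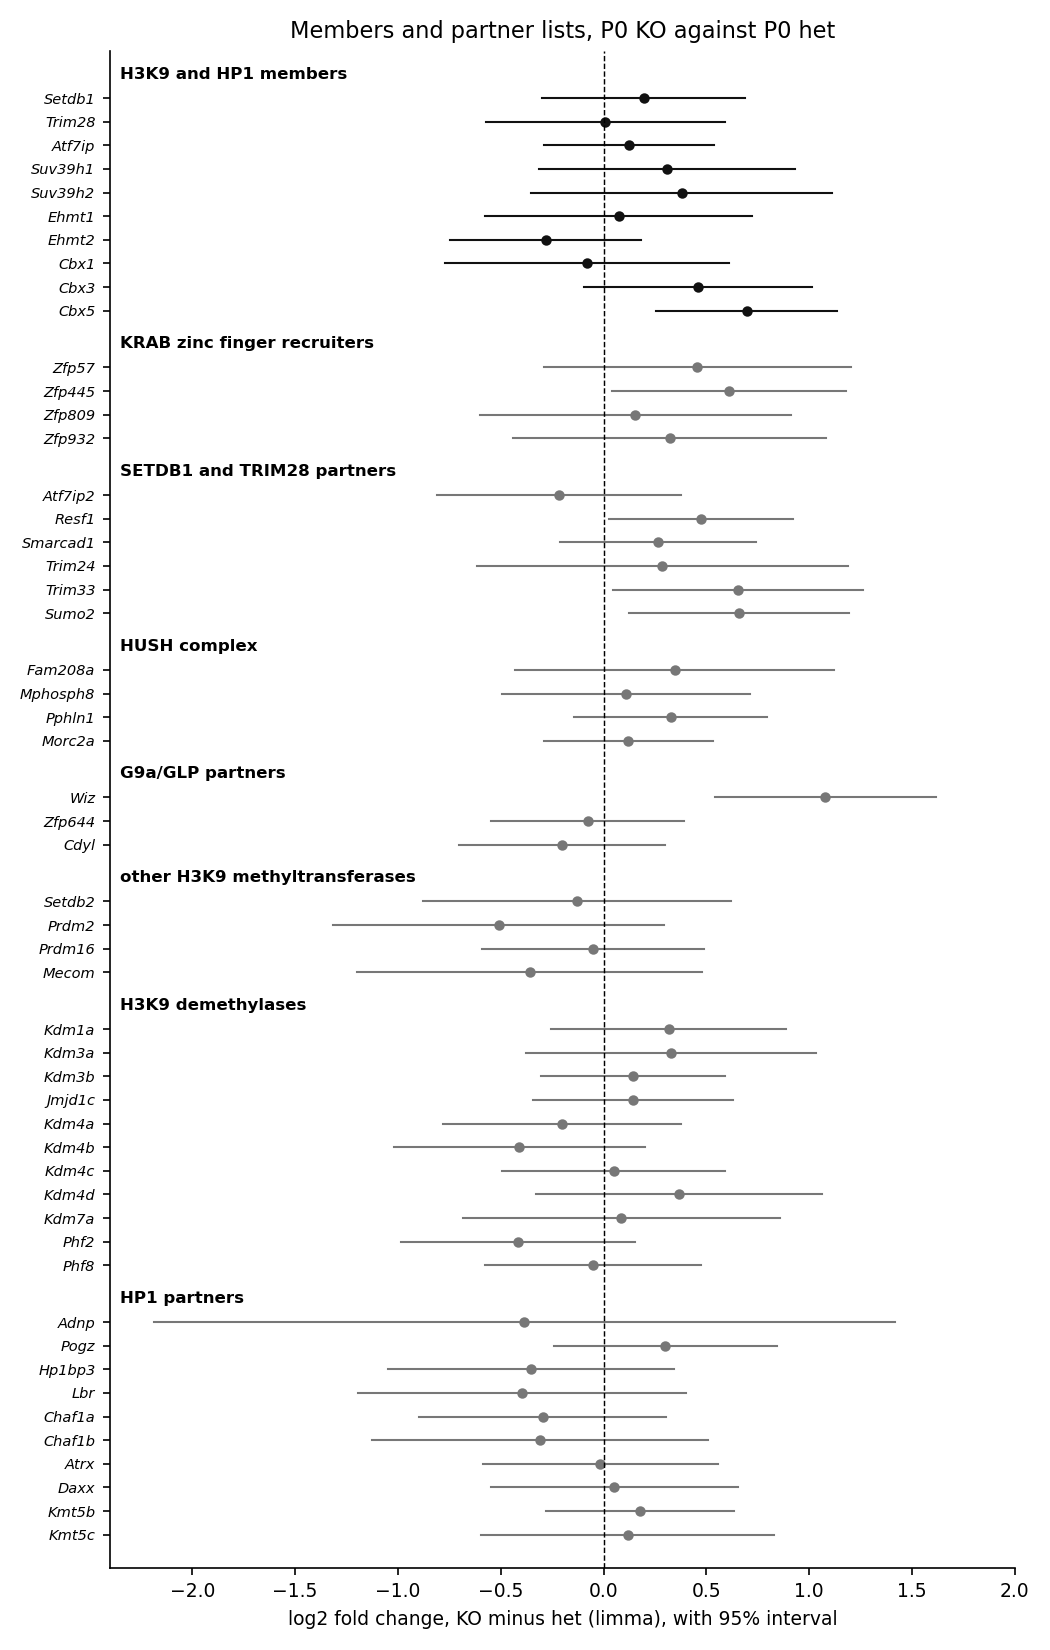
Log2 fold change, KO over het, with its 95% interval from limma, for the 10 genes (black) and the tested genes of the 7 partner lists that are reported here (grey). The intervals of Cbx5, Wiz, Sumo2, Trim33, Zfp445 and Resf1 lie above 0, none lies below 0, and none of these genes passed the adjusted test in limma.

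Partners of SETDB1 and TRIM28 had positive estimates in 6 of 7 genes, with 3 of 7 at an unadjusted limma p under 0.05, all higher in KO, against 4.42% of all genes tested. Nothing particular to the list is read from so few genes. Sumo2, whose protein is attached to TRIM28 when it recruits SETDB1, had 1750, 2113 and 2614 normalized counts in het and 3155, 2826 and 4264 in KO (log2 fold change 0.66, SE 0.24, limma adjusted p = 0.570). Its groups were apart. Resf1, which binds SETDB1 in retrovirus silencing, had 3012, 4057 and 3779 in het and 4705, 5410 and 4861 in KO (log2 fold change 0.47, SE 0.20, limma adjusted p = 0.690). Trim33, a relative of TRIM28, had 1462, 1597 and 2422 in het and 2122, 2901 and 3578 in KO (log2 fold change 0.65, limma adjusted p = 0.680), and its groups overlapped through het replicate 3. Resf1 and Trim33 are named here after their values were seen. Of the KRAB zinc finger list, all 4 tested genes had positive estimates. Zfp445, a guardian of imprinted regions, had 1056, 1214 and 839 in het and 1911, 1189 and 1685 in KO (log2 fold change 0.61, SE 0.26, limma adjusted p = 0.686), with KO replicate 2 inside the het range.

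**Figure D5:**
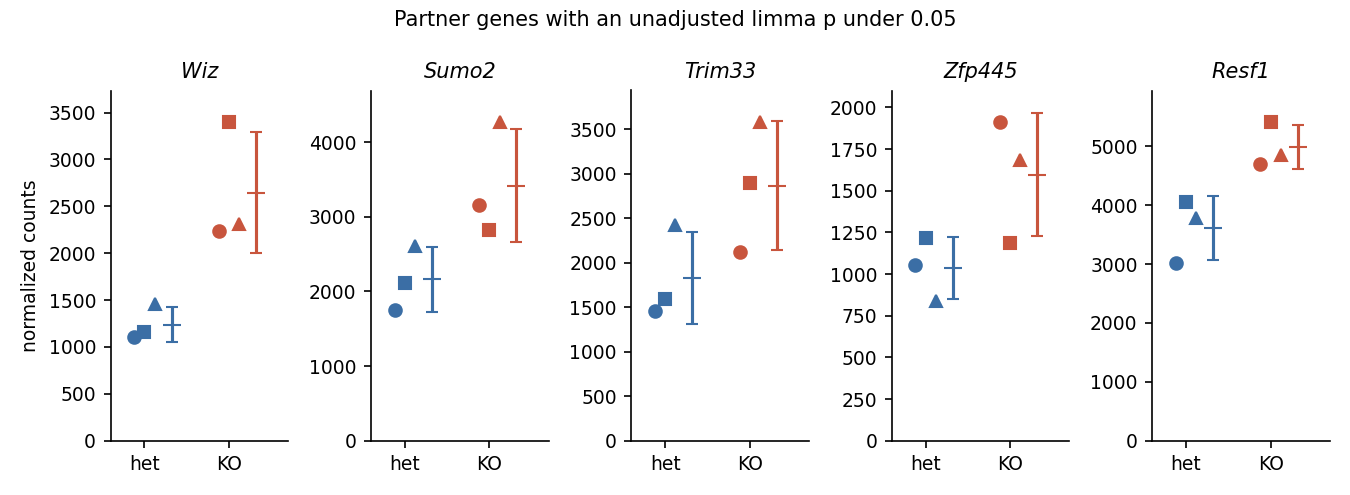
Normalized counts (linear axes from 0) of the 5 partner genes with an unadjusted limma p under 0.05, in het (blue) and KO (red) libraries, with 1 symbol shape per replicate number and bars for mean ± SD (n = 3). Groups are apart for Wiz, Sumo2 and Resf1 and overlap for Trim33 and Zfp445.

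The HUSH complex recruits SETDB1 to silence integrated elements, and all 4 of its listed genes, Tasor (as Fam208a), Mphosph8, Pphln1 and Morc2a, had positive estimates with no unadjusted p under 0.05. Mphosph8, the subunit that reads methylated H3K9, had 5313, 5335 and 9879 normalized counts in het and 5807, 8175 and 7392 in KO (log2 fold change 0.11, limma adjusted p = 0.969). The outlying value was again in het replicate 3. Pphln1, the periphilin subunit, had 4036, 4098 and 2902 in het and 4302, 4443 and 4963 in KO (log2 fold change 0.33, limma adjusted p = 0.857), with groups that did not overlap.

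All 4 other H3K9 methyltransferase genes had negative estimates, with no unadjusted p under 0.05 and a smallest adjusted p of 0.877. Prdm2, the most abundant of them per kb, had 5086, 5485 and 4559 normalized counts in het and 5831, 4110 and 1836 in KO (log2 fold change -0.51, SE 0.36). The low value of KO replicate 3 set that estimate, which was -0.04 without it. Among the 11 H3K9 demethylase genes, 7 estimates were positive and 4 negative, and none had an unadjusted p under 0.05. Kdm3a, an eraser of the lower methylation states and the most abundant of this list, had 15727, 17939 and 9905 in het and 21163, 11067 and 23606 in KO (log2 fold change 0.33, limma adjusted p = 0.909). Phf2 had 729, 803 and 595 in het and 533, 643 and 429 in KO (log2 fold change -0.41, limma adjusted p = 0.847). Both genes had overlapping groups.

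Of the 10 HP1 partner genes, 4 had positive and 6 negative estimates, and none had an unadjusted p under 0.05. Lbr, the lamin B receptor, which holds HP1-bound chromatin at the nuclear envelope, had 5161, 5965 and 2311 normalized counts in het and 3972, 2260 and 3483 in KO (log2 fold change -0.40, SE 0.36, limma adjusted p = 0.898). The lowest value of each group was that of het replicate 3 and KO replicate 2. Pogz, whose protein binds HP1α, had 2836, 3198 and 4233 in het and 4307, 5142 and 3230 in KO (log2 fold change 0.30, limma adjusted p = 0.893), again with overlapping groups.

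TE copies that lie within the 10 genes were read from the TE table, which gives positions and no family names. It listed 111 such copies, 98 in introns and 13 in exons, of which 27 had a mean of at least 10 normalized counts. None of the 27 passed the limma test and none had an unadjusted p under 0.05, whereas 16.3% of the 49781 TE copies tested passed and 25.6% had an unadjusted p under 0.05. The counts of calls were also 0 in edgeR and DESeq2. Only 3 of the copies had a mean of at least 50. The TE values have size factors of their own, 0.891 to 1.04 in het and 1.05 to 1.29 in KO. Those of the gene values were 1.03 to 1.05 in het and 0.968 to 1.02 in KO. KO values of TE copies are thus set lower against het than with the gene size factors. With the gene size factors, and with quantile normalization, 1 of the 27 had an unadjusted limma p under 0.05. The count was also 1 without KO replicate 2, alone or together with het replicate 3. Without a filter it was 5 of the 111 copies, and none passed under any of these settings. These copies are inside transcribed genes, so reads of the host transcript and of the copy cannot be told apart. The smallest p was that of a 111-base copy in an intron of Atf7ip, on the opposite strand (chr6:136517421-136517531), with 27.4, 22.4 and 24.9 normalized counts in het and 17.2, 6.97 and 10.3 in KO (log2 fold change -1.13, SE 0.58, limma adjusted p = 0.260). This copy also lies within the span of Gm44140, a noncoding gene on the strand of the copy, with 38.0 to 62.3 normalized counts per library. It lies before the RefSeq start of Atf7ip, whose upstream window is chr6:136518601-136518850. Next was a 115-base copy in the 3′ UTR of Cbx5, on the same strand (chr15:103192942-103193056). It had 146, 165 and 126 in het and 259, 135 and 268 in KO (log2 fold change 0.54, SE 0.38, limma adjusted p = 0.453). KO replicate 2 thus lay in the het range of the TE values. TE and gene values have separate size factors, 1.29 and 0.968 in KO replicate 2, so this overlap depends on the scaling. With the gene size factors, the reads of this copy in KO replicate 2 stand above those of every het library. The third was a 269-base copy in an intron of Ehmt1 (chr2:24823047-24823315), with 24.3, 11.2 and 26.8 in het and 10.5, 15.5 and 5.99 in KO (log2 fold change -0.90, SE 0.65, limma adjusted p = 0.470).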

How the data were processed

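Normalized counts per gene and per TE copy of 6 P0 libraries were analysed, deposited by the authors as a signal. The gene table is named as normalized by DESeq2. The TE table is named as read counts, but its values were not whole numbers and were taken as normalized. Both were read as reads per feature over 1 size factor for each library. The submitters' processing notes name bcl2fastq 2.20, cutadapt 1.18, HISAT2 2.1.0, featureCounts 1.5.2, DESeq2 1.26.0 and mm10/GRCm38, and state no strand setting. All values were whole multiples of 1 step per library (100% within 0.001), which gave the reads. Depth was 28363683 to 32816861 reads per library for genes and between 1974504 and 3703419 for TE copies, whose columns were read as P0 after the title of their file.

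Symbols and positions came from GENCODE M21 (35560 of 35666 genes matched), and promoter windows from RefSeq (GRCm38.p6). TE copies were read as GRCm38. The main test, on features whose mean reached 10, was limma 3.58.1 under R 4.3.3 (trend, two-sided) on log2(value + 1), which understates the change of low features, with Benjamini-Hochberg adjustment over all tested. edgeR 4.0.16 (quasi-likelihood) and DESeq2 1.42.0 were run on recovered reads. Similar transcripts were found with BLAST 2.17.0 and coding sequences aligned with MAFFT 7.526. Scripts were tested on simulated data.

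The genes, the 7 partner lists and the marker lists were chosen with earlier results of these data known. Named were the 10 genes, Morc1, in each partner list the most abundant gene per kb and that with the smallest p, similar transcripts with a mean of at least 10, the 3 genes most like the gene of the 10 with the smallest p, and the 3 TE copies with the smallest p. Genes outside this rule were named after their values were seen. For 1 partner gene that the rule names, values are not reported here. Results were recomputed under 17 other settings (pseudocount, filter, scaling, tool, replicate block, each library left out) and 1 chosen after seeing the data, without het replicate 3 and KO replicate 2.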

Additional observations from a re-analysis of the deposited data

How the results depend on the processing

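None of the 10 genes and none of the TE copies in them passed under any of the alternatives run on them, and of the partner genes 1 passed under DESeq2, Wiz. In 167 of 180 comparisons of the 10 genes with an alternative the sign was kept. Cbx5, Cbx3, Setdb1, Atf7ip, Suv39h2 and Ehmt2 kept it throughout. For Setdb1 this was so in name only, at 0.001 without het replicate 3, alone or together with KO replicate 2. The log2 fold change of Trim28 turned to -0.017 under quantile normalization, edgeR and DESeq2, and ranged from -0.15 to 0.26 with 1 library left out. Without both het replicate 3 and KO replicate 2, Suv39h1 turned to -0.036 and Ehmt1 to -0.12. With 1 library left out, Ehmt1 ranged from -0.24 to 0.28, Cbx1 from -0.41 to 0.13, Mphosph8 from -0.042 to 0.41 and Zfp644 from -0.22 to 0.028. A group left with 2 libraries has fewer samples to test.

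Morc1 did not pass in limma without trend (-2.03, adjusted p = 0.0890). With 1 library left out its log2 fold change was -2.31 to -1.88, and it did not pass without het replicate 1 (-1.90, adjusted p = 0.0511), KO replicate 1 (-1.97, adjusted p = 0.101) or KO replicate 3 (-2.17, adjusted p = 0.0663). The cause was not tested.

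Deviations of same-numbered het and KO libraries correlated at 0.14, -0.16 and -0.04, and not every library correlated best with its own number, so the numbers were not taken as pairs. With the replicate number as a block, Morc1 had -2.04 in edgeR (adjusted p = 0.0740) and -2.03 in limma (adjusted p = 0.0415), none of the 10 genes passed in either, and over all genes 69 passed in limma and 38 in edgeR, against 123 in limma without the block. Over all genes 75 passed with a pseudocount of 0.1, 189 with a pseudocount of 10, 465 in DESeq2, 76 without both het replicate 3 and KO replicate 2, and 16 to 114 with 1 library left out. With 3 libraries a group, the intervals of the 10 genes are wide: that of Atf7ip, the narrowest, is 0.818- to 1.45-fold, and that of Suv39h2, the widest, 0.784- to 2.16-fold.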
